A study of Mus musculus with 12 samples.

Results

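Ion channels and ionotropic receptors were examined in RNA-Seq libraries of mouse hippocampal CA1. The genes were taken by a rule on symbols, set with earlier results of these data known. The rule took all potassium (Kcn), sodium (Scn), calcium (Cacn), HCN, chloride (Clcn, Clic, Ano), TRP and acid-sensing channel genes. It also took the subunits of P2X, glycine, GABA-A, glutamate, nicotinic and 5-HT3 receptors. Of the 10245 gene symbols in the table used, 76 matched. RefSeq holds 264 protein-coding symbols of this form, and 75 of them (28.4%) were in the table, against 34.1% of all RefSeq protein-coding genes. Most pore subunits of the CA1 pyramidal cell, such as those of AMPA, NMDA and synaptic GABA-A receptors, were not analysed here, so the text describes the channel genes at hand and not the channel makeup of CA1.

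Control mice carried a floxed Tip60 gene (symbol Kat5, a lysine acetyltransferase of histones) and no Cre. Tip60 cKO littermates carried the same floxed gene and the CaMKCreERT2 driver, whose tamoxifen-inducible Cre acts in excitatory forebrain neurons. The study still detected TIP60 protein in glia of such mice. Interneurons are outside the cells the driver is directed to, and their TIP60 was not examined here. All mice were males of the C57BL/6N strain, received tamoxifen at 2 months of age and were killed 10 days after the last injection. Dorsal CA1 of each mouse, both hemispheres pooled, gave 1 library, and there were 6 control and 6 Tip60 cKO libraries. Replicate numbers were given here in the order of deposition and only name a library. Cre was present in the Tip60 cKO mice alone, and its own effect cannot be told apart from Tip60 loss. Kat5 was not analysed here, and the genotype labels were not checked against it.

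Channels set the excitability of a neuron. Voltage-gated sodium channels start the action potential, potassium channels end it and hold the membrane at rest, and ionotropic receptors turn released transmitter into current. Pore subunits are joined by auxiliary subunits that change their gating or their delivery to the membrane: KChIP and KCNE proteins for potassium channels, beta subunits for sodium channels, and TARP gamma proteins, named for calcium channels, for AMPA-type glutamate receptors. Some Kv subunits are electrically silent, meaning that they form no channel alone and alter the Kv2 channels they join.

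Levels are in FPKM, fragments per kilobase of transcript and per M (mega) of reads, so genes can be compared with each other. The depth, estimated from the FPKM worth of 1 read, was 31.0 to 37.8 M reads per library. A table-wide test in limma compared log2(FPKM + 1) between 6 Tip60 cKO and 6 control libraries over the 2416 genes whose mean reached 0.5 FPKM, and genes were called when the Benjamini-Hochberg adjusted p was below 0.05 and FPKM + 1 differed by more than 1.2-fold. A drop in bulk tissue can come from fewer cells of a type or from less RNA per cell, which cannot be told apart. The only CA1 pyramidal marker of a list of 6 that the table held, Pou3f1, rose and was present at 25.8 to 62.5 FPKM in all 12 libraries. Of 13 interneuron markers, 5 were in the table and 4 of them rose, with a sum of 382 to 445 FPKM in controls and 763 to 833 FPKM in Tip60 cKO. Most of that sum was Sst (means of 317 and 616 FPKM) and Npy (64.6 and 140 FPKM). The other means were smaller, at 19.65 and 24.5 FPKM for Slc32a1, 2.76 and 10.0 FPKM for Cort, and 3.13 and 3.15 FPKM for Calb2. Of 11 microglia markers, 6 were in the table, 3 rose and 1 fell, with sums of 107 to 125 and 118 to 154 FPKM. Of 4 tested markers of meninges and fibroblasts 2 rose (sums of 5 in the table, 20.5 to 29.7 and 29.6 to 38.7 FPKM), as did 1 of 4 of endothelial and mural cells (26.9 to 32.1 and 29.6 to 35.1 FPKM) and 1 of 3 of ependyma, and none of 3 of dentate granule cells or of 2 of the oligodendrocyte lineage. Of 12 choroid plexus markers, 6 were in the table, and Tip60 cKO replicate 1 alone was high in their most abundant member, Ttr, at 201 FPKM against at most 0.689 FPKM in controls. No astrocyte marker of the list was in the table.

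Most of the 76 genes were low or listed at 0 in CA1, as were most genes of the table. Whether a listed 0 means a silent gene was not tested, since the program that gave the values is not stated. Of the 7258 symbols kept, each above 0 in at least 1 library, 2416 reached a mean of 0.5 FPKM, and 2417 others were at 0 throughout. Only 17 reached a mean of 0.5 FPKM and were tested, 19 had a mean from 0.1 to 0.5 FPKM, and 40 were below 0.1 FPKM, of which 3 (Gabrp, Kcnq1 and Kcnmb3) were listed at 0 in all 12 libraries. Some channels known from other tissues, named here after their values were seen, were near 0. Gabra6, the GABA-A subunit of cerebellar granule cells, was listed at 0 in every control library and at most 0.0125 FPKM in Tip60 cKO. The muscle nicotinic subunits Chrnd and Chrng, the sensory neuron sodium channels Scn10a and Scn11a, and the kidney channel Kcnj1 each had group means of at most 0.0130 FPKM.

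**Figure D1:**
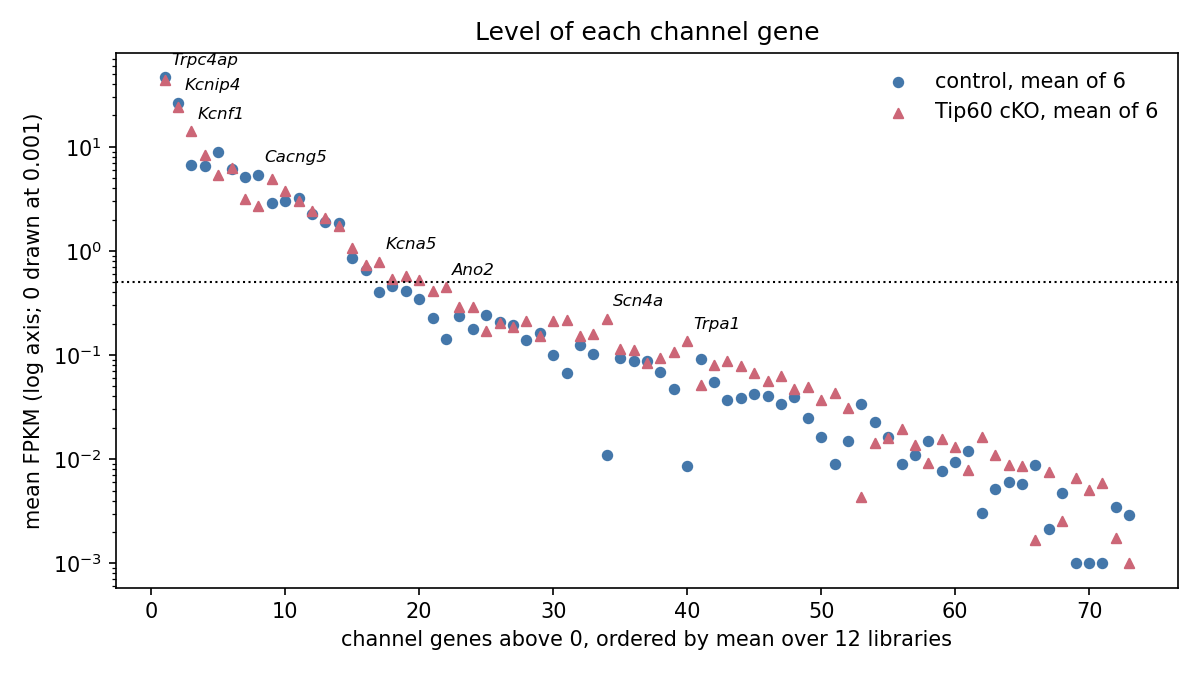
Mean FPKM (vertical log axis) of the 73 channel genes above 0, ordered by their mean over 12 libraries, in 6 control (circles) and 6 Tip60 cKO (triangles) libraries. The dotted line marks the mean of 0.5 FPKM needed for the test, which 17 genes reached, and means of 0 are drawn at 0.001.

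Among the tested genes in controls, the highest level belonged to Trpc4ap, at 46.6 ± 2.03 FPKM (SD, n = 6), which matched the symbol rule but encodes an adaptor protein and not a channel. Next came Kcnip4, which encodes the Kv4 auxiliary subunit KChIP4, at 26.4 ± 1.89 FPKM. A group of 6 genes followed between 8.97 and 5.11 FPKM, in the order Scn4b, Kcnf1, Kcnip1, Clic1, Cacng5 and Kcnh1, and the ranges of neighbours in this order overlapped. After a gap came Kcnj16 at 3.26 FPKM, then Grik3, Kcne1l, Kcns1, Kcnj2 and Kcnk13, again with overlap between neighbours down to 1.86 FPKM. Kcnk6, Kcnj14 and Kcna5 closed the order at 0.856, 0.662 and 0.399 FPKM. The levels of Kcnip4 and Trpc4ap are less certain than the others, because exons of genes on the opposite strand overlap theirs and whether the libraries keep strand is not stated in the labels or the methods.

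The comparison of genotypes asked which of these channel transcripts differ in CA1 after Tip60 loss. Of the 17 tested genes, 4 rose (Kcnf1, Kcne1l, Kcna5 and Kcnip1), 3 fell (Cacng5, Scn4b and Kcnh1), and 10 did not pass both thresholds. Kcna5 had reached the mean filter only through its Tip60 cKO libraries. All 4 that rose belong to potassium channels, as do 12 of the 17 tested genes. The shares were 23.5% higher and 17.6% lower, beside 19.9% and 6.5% of all tested genes. An adjusted p below 0.05 alone was reached by 10 of the 17 genes, or 58.8%, beside 54.7% of all tested genes. The median log2 change was 0.06 over the 17 genes and 0.09 over all tested genes. In 4 of the 17 genes (Kcnf1, Kcne1l, Kcnip1 and Kcnk6) all Tip60 cKO libraries lay above all controls, beside 25.2% of all tested genes, and in 3 (Cacng5, Scn4b and Kcnh1) below, beside 8.32%. The share of channel genes called higher was thus near that of the table, and whether the share called lower departs from it was not tested. With median-ratio scaling of the libraries 3 rose and 3 fell, beside 11.8% and 11.5% of all tested genes.

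Kcnf1, which encodes the silent subunit Kv5.1, had the largest rise of the 17 tested genes. It lay between 5.41 and 8.05 FPKM in controls (median 6.69) and between 11.97 and 17.1 FPKM in Tip60 cKO (median 14.1). Every Tip60 cKO library was therefore above every control library. The means were 6.66 ± 0.867 and 14.2 ± 2.02 FPKM (SD, n = 6 each), a ratio of 2.13 and a log2 change of 0.98 (SE 0.09; adjusted p = 6.71e-07 in limma). It ranked number 26 among the rises of the 2416 tested genes. Kcns1, which encodes Kv9.1, another silent partner of Kv2 channels, was 2.25 ± 0.375 FPKM in controls against 2.44 ± 0.197 FPKM in Tip60 cKO and did not pass (log2 change 0.09, SE 0.07; adjusted p = 0.298 in limma).

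Of the potassium channel auxiliary subunits, Kcne1l (now named Kcne5), a member of the single-span KCNE family, lay between 2.47 and 3.34 FPKM in controls (median 2.88) and between 3.95 and 5.54 FPKM in Tip60 cKO (median 5.07). The groups did not overlap, the ratio of means was 1.70 and the log2 change 0.61 (SE 0.08; adjusted p = 1.25e-05 in limma). Kcnip1 encodes KChIP1, a calcium-binding partner of Kv4 channels. It ran from 5.72 to 7.15 FPKM in controls (median 6.59) and from 7.80 to 9.10 FPKM in Tip60 cKO (median 8.15), again without overlap. Its ratio of means was 1.28 and its log2 change 0.31 (SE 0.06; adjusted p = 0.000237 in limma), but the change was 0.21 with median-ratio and 0.25 with upper-quartile scaling, too small for the call. Of the 5 interneuron markers in the table, 4 rose as well, and Calb2 was 3.13 and 3.15 FPKM. The CA1 pyramidal marker Pou3f1 also rose, from 28.9 to 55.0 FPKM. The part of any cell type in the rises of Kcne1l and Kcnip1 was not tested. Kcnip4 went the other way in its values, from 26.4 ± 1.89 to 23.9 ± 1.48 FPKM, with a log2 change of -0.14 (SE 0.05; adjusted p = 0.030 in limma), below the 1.2-fold limit. Its groups overlapped, between the lowest control at 24.26 FPKM and the highest Tip60 cKO library at 24.96 FPKM.

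Kcna5 encodes Kv1.5, a delayed rectifier best known from heart and vascular muscle. It was low in controls, at 0.261 to 0.525 FPKM (median 0.407), and spread widely in Tip60 cKO, at 0.462 to 1.31 FPKM (median 0.657). The lowest Tip60 cKO library lay within the control range and the other 5 above it. The log2 change was 0.34 (SE 0.10; adjusted p = 0.00869 in limma), smaller than the ratio of means of 1.96, since 1 FPKM is added before the logarithm. At this level the gene was measured from about 40.8 reads per control library and 74.8 per Tip60 cKO library, as estimated from depth and transcript length. Acta2, the smooth muscle actin on the endothelial and mural marker list, was 4.87 to 7.06 FPKM in controls (median 5.32). In Tip60 cKO it was 5.49 to 8.77 FPKM (median 7.06), a ratio of means of 1.24 with overlapping groups. The others of that list in the table, Cldn5, Cdh5 and Pdgfrb, had ratios of 1.04, 1.04 and 1.11, also with overlap. Any part of these cells in the rise of Kcna5 was not tested.

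**Figure D2:**
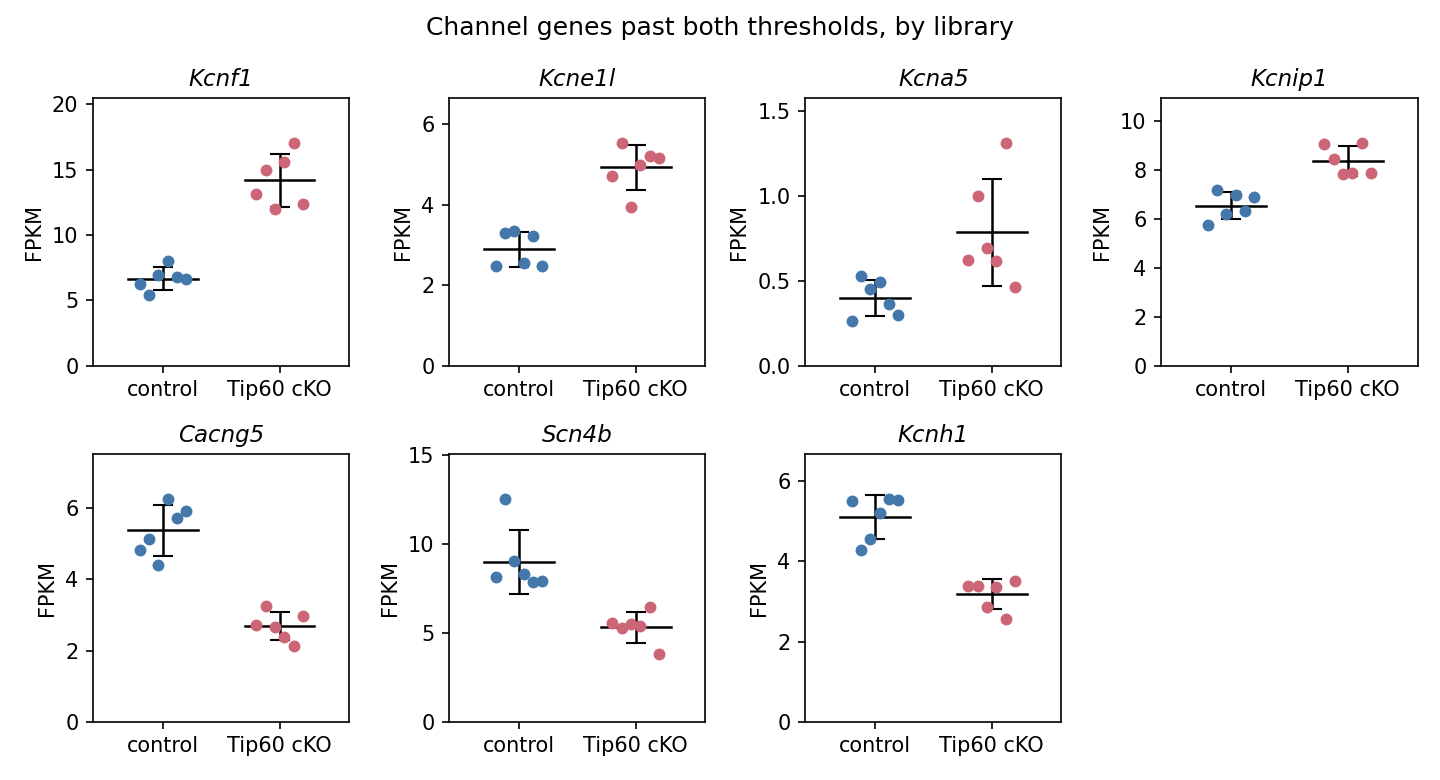
FPKM by library of the 7 channel genes past both thresholds, with 6 control (left) and 6 Tip60 cKO (right) libraries per panel; points are libraries, the horizontal line is the mean and the bar 1 SD. The groups do not overlap in 6 panels, whereas Kcna5 has a Tip60 cKO library at 0.462 FPKM, below the highest control at 0.525 FPKM.

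Among the genes that fell, Cacng5, a TARP gamma subunit of AMPA receptors, had the largest change. It ran from 4.39 to 6.26 FPKM in controls (median 5.43) and from 2.14 to 3.27 FPKM in Tip60 cKO (median 2.701). It ranked number 7 among the falls of the 2416 tested genes. All Tip60 cKO libraries were below all controls, with a ratio of means of 0.501 and a log2 change of -0.79 (SE 0.08; adjusted p = 1.71e-06 in limma). Cacng5 is also a marker of CA2 and CA3 pyramidal neurons, and Bok, the only other of the 8 markers of that list in the table, was 16.4 FPKM in controls against 12.8 FPKM in Tip60 cKO with overlapping groups. The part of a neighbouring subfield in this fall was not tested. Cacng1, the gamma subunit of skeletal muscle calcium channels, was at most 0.0336 FPKM as a group mean.

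Scn4b encodes the sodium channel beta4 subunit, whose cytoplasmic tail can block the open pore and so shape repetitive firing. Its levels were 7.84 to 12.5 FPKM in controls (median 8.24) and 3.81 to 6.48 FPKM in Tip60 cKO (median 5.43). The groups did not overlap, and control replicate 2 stood above the other controls. The means were 8.97 ± 1.799 and 5.33 ± 0.864 FPKM (SD, n = 6 each), a log2 change of -0.65 (SE 0.11; adjusted p = 0.000284 in limma), and the change was -0.56 without that library. Kcnh1, which encodes the ether-a-go-go channel Kv10.1, was 4.28 to 5.56 FPKM in controls (median 5.35) and 2.57 to 3.50 FPKM in Tip60 cKO (median 3.38), with no overlap, a ratio of means of 0.623 and a log2 change of -0.55 (SE 0.07; adjusted p = 1.44e-05 in limma). Its relative Kcnh8 was near 0.2 FPKM in both groups (0.196 and 0.188 FPKM).

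**Figure D3:**
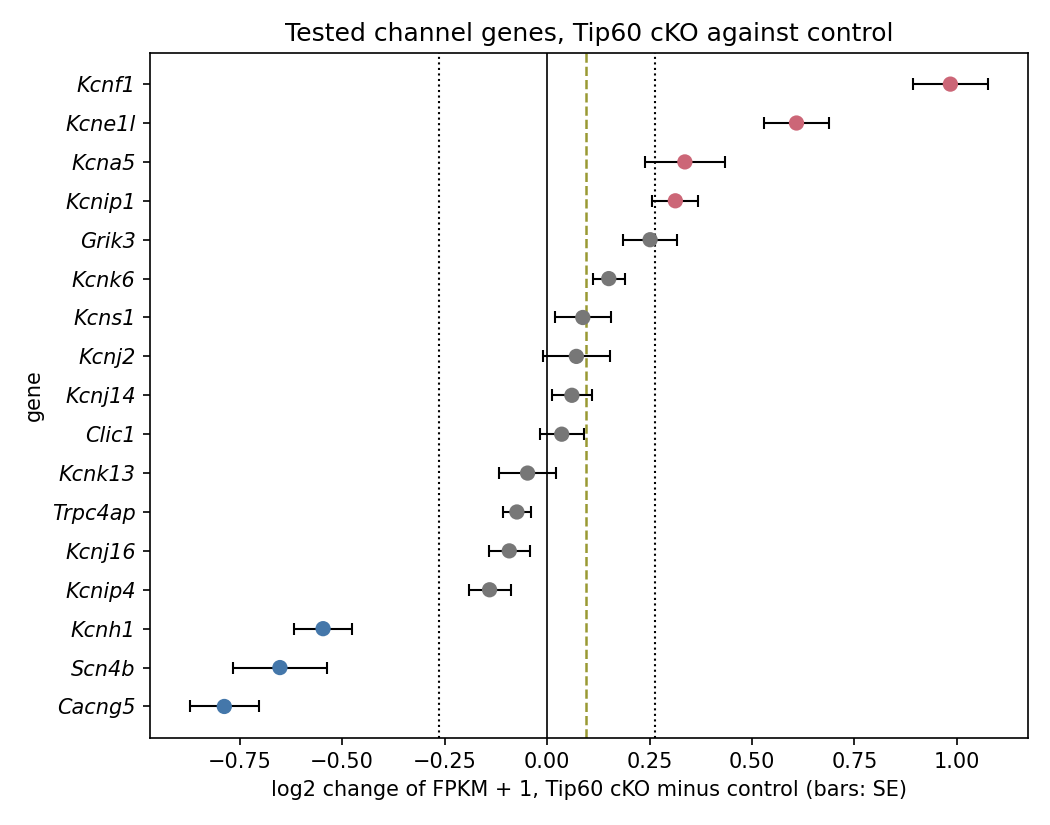
Log2 change of FPKM + 1, Tip60 cKO minus control (horizontal axis, bars are SE, 6 libraries per group), of the 17 tested genes; filled red and blue points passed both thresholds upward and downward, and grey points did not. Dotted lines mark a 1.2-fold change and the dashed line the median of 0.09 over 2416 tested genes, and the 7 called genes lie outside the dotted lines.

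The 250 bases before the RefSeq start site of 4 genes are shown (build GRCm38.p6, strand given, 5′ to 3′). These windows were picked because they differ in CpG content, and a relation of CpG content to Tip60 loss was not tested. Kcnf1 rose, Kcnh1 and Scn4b fell, and Scn4a is a gene of low level described further on. Capitals mark each CpG dinucleotide.
Kcnf1 (chr12:17176889-17177138, minus strand): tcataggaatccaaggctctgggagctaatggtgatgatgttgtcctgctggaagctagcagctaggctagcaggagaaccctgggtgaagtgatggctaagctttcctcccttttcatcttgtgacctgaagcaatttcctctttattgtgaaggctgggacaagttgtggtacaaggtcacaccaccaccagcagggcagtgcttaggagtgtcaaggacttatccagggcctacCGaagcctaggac
Kcnh1 (chr1:192190527-192190776, plus strand): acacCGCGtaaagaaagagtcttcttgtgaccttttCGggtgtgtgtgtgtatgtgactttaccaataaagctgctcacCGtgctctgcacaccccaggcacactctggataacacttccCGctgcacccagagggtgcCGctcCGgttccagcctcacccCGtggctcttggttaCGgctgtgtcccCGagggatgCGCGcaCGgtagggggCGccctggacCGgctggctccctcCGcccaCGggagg
Scn4b (chr9:45138374-45138623, plus strand): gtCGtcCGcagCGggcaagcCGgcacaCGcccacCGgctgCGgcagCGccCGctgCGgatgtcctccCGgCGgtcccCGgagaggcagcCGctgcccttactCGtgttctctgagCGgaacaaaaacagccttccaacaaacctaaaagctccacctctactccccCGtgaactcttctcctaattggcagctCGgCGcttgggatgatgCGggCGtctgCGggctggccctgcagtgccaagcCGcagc
Scn4a (chr11:106349391-106349640, minus strand): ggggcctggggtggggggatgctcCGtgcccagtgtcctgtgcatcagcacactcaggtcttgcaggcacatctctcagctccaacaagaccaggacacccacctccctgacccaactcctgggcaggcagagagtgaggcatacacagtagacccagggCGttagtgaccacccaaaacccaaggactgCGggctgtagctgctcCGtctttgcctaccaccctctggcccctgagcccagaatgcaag
The Kcnf1 window held 1 CpG and the Scn4a window 4, whereas the Kcnh1 and Scn4b windows held 17 and 23. The median over 32851 windows of that length was 6. Of the other called genes, Kcna5 had 3 CpG, Kcne1l 9, the 3 annotated starts of Kcnip1 6, 12 and 3, and the pair of Cacng5 starts 12 and 2, so the windows of genes that rose ran from 1 to 12 and those of genes that fell from 2 to 23. The cAMP response element TGACGTCA was in none of 70 windows of 60 channel genes, beside 1.55% of all windows. The AP-1 site TGACTCA, on either strand, was in 2 of the 70, 1 of Cacng5 and 1 of Clic1, beside 4.46% of all windows. These matches describe the letters of the windows only.

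The remaining tested genes gave smaller differences. Grik3 encodes the kainate receptor subunit GluK3. It was 2.44 to 3.40 FPKM in controls (median 3.06) and 3.29 to 4.26 FPKM in Tip60 cKO (median 3.85), with a log2 change of 0.25 (SE 0.07; adjusted p = 0.00488 in limma) just within 1.2-fold. It passed both thresholds without Tip60 cKO replicate 1, at 0.27, and with median-ratio scaling passed neither, at 0.16 (adjusted p = 0.0551 in limma). Kcnk6, which encodes the two-pore-domain channel TWIK-2, was 0.789 to 0.913 FPKM in controls (median 0.869) and 0.990 to 1.12 FPKM in Tip60 cKO (median 1.06). Its groups did not overlap, but its log2 change was 0.15 (SE 0.04; adjusted p = 0.0042 in limma), and 0.09 (adjusted p = 0.0576 in limma) with median-ratio scaling.

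Kcnj16, which encodes Kir5.1, a partner of the Kir4.1 channel of glia, was 3.26 ± 0.293 FPKM in controls against 2.99 ± 0.135 FPKM in Tip60 cKO (adjusted p = 0.135 in limma). Kcnk13, which encodes THIK-1, a background potassium channel that sets the resting potential of mouse microglia, was 1.86 ± 0.318 and 1.75 ± 0.152 FPKM (adjusted p = 0.590 in limma). The inward rectifiers Kcnj2 (Kir2.1) and Kcnj14 (Kir2.4) were 1.90 ± 0.182 against 2.07 ± 0.446 FPKM and 0.662 ± 0.103 against 0.732 ± 0.0660 FPKM, with limma adjusted p of 0.487 and 0.312. Clic1, a small protein found both in the cytosol and in membranes, was 6.14 ± 0.468 and 6.32 ± 0.454 FPKM, and the sign of its log2 change of 0.04 turned with both scalings. Trpc4ap was 46.6 ± 2.03 and 44.2 ± 1.40 FPKM (adjusted p = 0.0872 in limma). None of these 6 genes reached an adjusted p of 0.05 with the values as deposited. Kcnj16 and Trpc4ap did so downward with median-ratio scaling (log2 changes -0.18 and -0.19, adjusted p = 0.00348 and 0.000144 in limma) and with upper-quartile scaling (-0.15 and -0.14, adjusted p = 0.0136 and 0.00102 in limma), though within 1.2-fold.

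Below the mean of 0.5 FPKM, 56 channel genes were above 0 in at least 1 library and were outside the main test. In 3 of them (5.36%) all Tip60 cKO libraries lay above all controls, beside 5.93% of all genes below that mean, and in 0 the reverse held, beside 0.289%. The 3 genes were Scn4a, Trpa1 and Chrnb3. Their share was near that of the table and is not a result about channels as a group.

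Scn4a encodes Nav1.4, the sodium channel of skeletal muscle. It was 0 to 0.0228 FPKM in controls (median 0.00812) and 0.137 to 0.352 FPKM in Tip60 cKO (median 0.212). Its values correspond to about 2.6 reads per control library and 49.2 reads per Tip60 cKO library. Trpa1, the cation channel by which sensory neurons detect irritants, was 0 to 0.0199 FPKM in controls (median 0.00662) and 0.0934 to 0.183 FPKM in Tip60 cKO (median 0.132), or about 1.3 and 19.3 reads. Both genes were thus at or near the level of single reads in controls, so no ratio is given, and both were low in Tip60 cKO too. Chrnb3, the nicotinic beta3 subunit, was 0.103 to 0.172 FPKM in controls (median 0.137) and 0.174 to 0.271 FPKM in Tip60 cKO (median 0.197), groups that nearly touch.

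**Figure D4:**
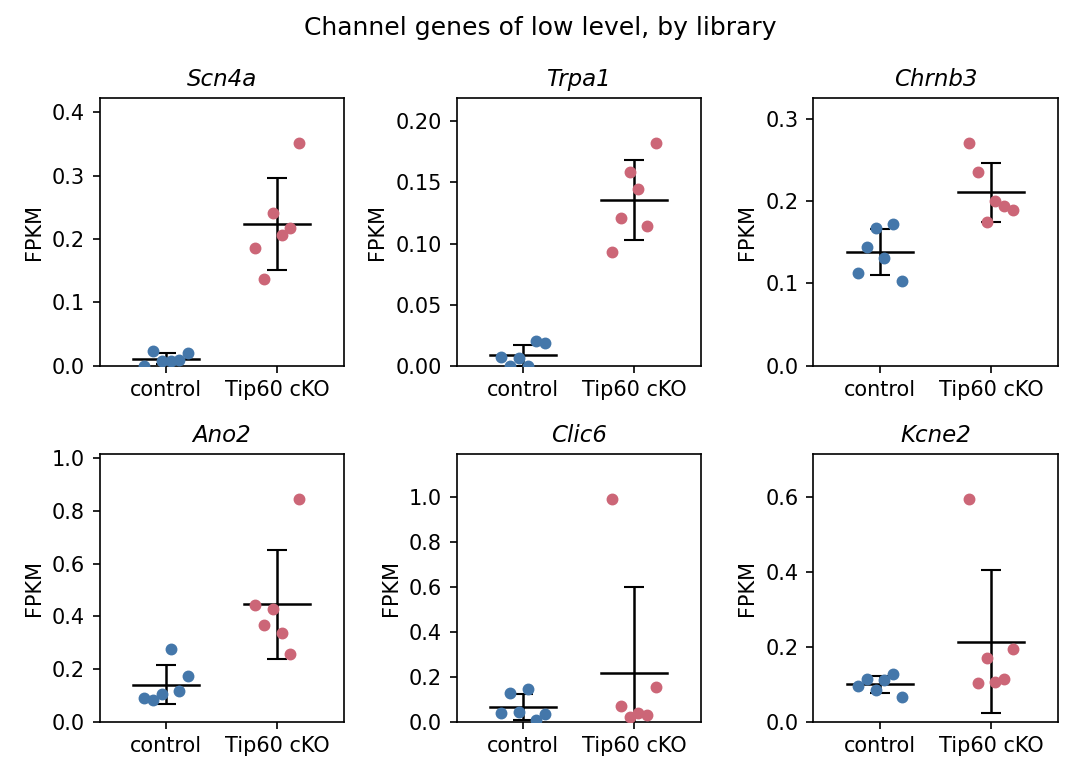
FPKM by library of 6 channel genes below the mean of 0.5 FPKM, with 6 control (left) and 6 Tip60 cKO (right) libraries per panel; points are libraries, the horizontal line is the mean and the bar 1 SD. Scn4a, Trpa1 and Chrnb3 do not overlap between groups, whereas in Clic6 and Kcne2 a single Tip60 cKO library, replicate 1, stands apart at 0.993 and 0.594 FPKM.

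A fit without the filter and with a pseudocount of 0.1, chosen after seeing the data, called 12 of the 73 channel genes above 0 higher and 3 lower, beside 16.1% and 3.07% of all 7258 genes. Among the 56 low genes 6 were higher (10.7%, beside 11.1% of all genes below that mean) and 0 lower (beside 0.723%). They were Scn4a (log2 change 1.52, SE 0.14; adjusted p = 2.45e-06 in limma), Trpa1 (1.11, SE 0.11; adjusted p = 5.27e-06), Ano2 (1.15, SE 0.23; adjusted p = 0.00164), Gabrr1 (0.45, SE 0.12; adjusted p = 0.0158), Chrnb3 (0.38, SE 0.12; adjusted p = 0.0268) and Trpv4 (0.40, SE 0.13; adjusted p = 0.0398). Changes of genes this low depend on the pseudocount. Ano2, a calcium-activated chloride channel, was 0.0848 to 0.275 FPKM in controls (median 0.112) and 0.259 to 0.845 FPKM in Tip60 cKO (median 0.398), with the ranges overlapping between 1 library of each group. Trpv4, an osmosensitive cation channel, was 0.307 to 0.498 and 0.417 to 0.664 FPKM. Gabrr1, a rho subunit of the GABA receptors best known from retina, was 0.0244 to 0.0627 and 0.0580 to 0.132 FPKM.

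In Clic6 and Kcne2, both known from choroid plexus epithelium and both on its marker list, 1 library decided the means. Clic6 was 0.00761 to 0.148 FPKM in controls but reached 0.993 FPKM in Tip60 cKO replicate 1, and the other 5 Tip60 cKO libraries were between 0.0238 and 0.157 FPKM. Kcne2 was 0.0665 to 0.127 FPKM in controls, 0.594 FPKM in that library and 0.104 to 0.195 FPKM in the other 5. Without it the Tip60 cKO means were 0.0647 ± 0.0549 and 0.138 ± 0.0417 FPKM (SD, n = 5), beside control means of 0.0673 ± 0.0573 and 0.0999 ± 0.0221 FPKM (SD, n = 6). That library also held Ttr at 201 FPKM. The calls of all 7 genes named above as risen or fallen were the same without it.

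Other genes of the same field, outside the symbol rule, were taken from a list of 88 channels, channel partners and receptor-clustering proteins. Of these, 21 were in the table and 4 were tested, with 2 higher and 1 lower, beside 19.9% and 6.5% of all tested genes, too few to set against those shares. Nptx1, a neuronal pentraxin that binds AMPA receptors, lay between 44.4 and 58.1 FPKM in controls (median 46.5) and between 28.0 and 34.7 FPKM in Tip60 cKO (median 28.8). It fell with a log2 change of -0.68 (SE 0.07; adjusted p = 7.96e-07 in limma). Its activity-induced relative Nptx2 lay between 17.0 and 23.6 FPKM in controls (median 19.7) and between 30.5 and 40.2 FPKM in Tip60 cKO (median 35.7), and rose with a log2 change of 0.79 (SE 0.08; adjusted p = 1.3e-06 in limma). The groups did not overlap in either pentraxin, and the directions were opposite. Ric3, a chaperone of nicotinic receptors, lay between 11.4 and 14.5 FPKM in controls (median 13.3) and between 15.8 and 17.4 FPKM in Tip60 cKO (median 16.7), and rose with a log2 change of 0.33 (SE 0.05; adjusted p = 4.58e-05 in limma). Tmem35, a further nicotinic receptor chaperone, was 16.3 ± 0.742 and 13.9 ± 1.13 FPKM, a log2 change of -0.22 (SE 0.05; adjusted p = 0.00142 in limma) within 1.2-fold.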

How the data were processed

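CA1 RNA of 12 mice, 1 library per mouse, was made into libraries with a TruSeq kit. The deposited values are FPKM for each gene row and library, that is, relative to transcript length and depth, and no read counts. As tools, the submitters' processing notes list CASAVA 1.8.2, bedtools 2.16.2, FastQC 0.10.0 and TopHat2 2.0.8, with mm9 as the build. Which program and annotation produced the FPKM, and whether strand was kept, is not stated in the labels or the methods. The unit was read from the values, since value times length piles up at the level of whole reads in each library.

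Exact repeats (100 rows) were dropped and the rows of a symbol added up. Not tested were 524 small RNA symbols, 2417 symbols at 0 throughout and 46 with isolated 0 values beside a median of at least 1 FPKM elsewhere; another 3, near 0 in 1 genotype, were kept, and no channel gene was among either. Of the 7258 symbols left, 2416 reached a mean of 0.5 FPKM. limma 3.58.1 in R 4.3.3 was fitted to log2(FPKM + 1), using a variance prior that follows the mean and robust estimation, for 6 against 6 libraries without covariates, and p-values were adjusted over all tested genes. Log2 changes understate those of low genes. The fit was also run on simulated data with independent normal errors, scoring the adjusted p alone. It found 84% of 50 genes changed 1.2-fold, and 5.94% of all its calls were unchanged genes. The simulation held no library that stands apart, so it says nothing on such libraries. A count model could not be used, and read numbers, estimated from depth and the longest GENCODE transcript, are approximate, so no counting interval is given.

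Named are all tested channel genes, and those of low level whose groups do not overlap. Other genes of low level, among them those that passed only outside the main settings, were named after their values were seen. The channel genes, the lists and the tests were chosen with earlier results of these data known. Promoter windows are from RefSeq (GRCm38.p6), and 60 of the 76 genes had one. Alternatives were another pseudocount, other filters, other scalings, a constant prior and the removal of single libraries. Members of gene families may share reads with relatives.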

Additional observations from a re-analysis of the deposited data

Results flagged for a closer look

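In 37 channel genes, those whose mean reached 0.1 FPKM or whose groups did not overlap, each genotype was searched for a library far from the other 5 by Dixon's test. Of 74 groups, 11 values stood apart. The threshold is set for about 1 in 20 groups of independent, normally spread values, whereas several of these values share a library. The share over all genes was not computed, so the count is not a result about channel genes. Among tested genes these were Scn4b in control replicate 2 (12.5 FPKM, high), Kcns1 in control replicate 6 (3.004 FPKM, high) and Kcnip4 in Tip60 cKO replicate 6 (21.0 FPKM, low). In genes of low level, Tip60 cKO replicate 1 was high in Clic6 (0.993 FPKM), Kcne2 (0.594 FPKM) and P2rx5 (0.962 FPKM), a P2X receptor subunit, and its Ttr was 201 FPKM. Tip60 cKO replicate 3 was high in Gabrr2 (1.43 FPKM), a rho GABA receptor subunit, and in the cation channel Trpc7 (0.520 FPKM). Tip60 cKO replicate 6 was high in Ano2 (0.845 FPKM), control replicate 1 was high in Trpc7 (0.284 FPKM) and control replicate 6 was low in P2rx5 (0.178 FPKM).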

How the results depend on the processing

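The count of channel genes called lower was 3 under all 9 alternatives, and the count called higher was 3 to 6 under 8 of them, beside 4 with all libraries and the main settings. With a pseudocount of 0.1 and no filter, chosen after seeing the data, 12 of 73 were higher, beside 16.1% of all 7258 genes, since more genes were tested and low genes weigh more. Kcnf1, Kcne1l, Kcna5, Cacng5, Scn4b and Kcnh1 kept their direction and their call under all 9. Kcnip1 lost its call with median-ratio (0.21) and upper-quartile scaling (0.25). Grik3 gained one with a pseudocount of 0.1 (0.32) and without Tip60 cKO replicate 1 (0.27), and Kcnk6 with a pseudocount of 0.1 (0.28), whereas with median-ratio scaling both were smaller (0.16 and 0.09) and missed the adjusted p of 0.05. For Kcnip4 the adjusted p in limma was 0.079 without the filter, 0.073 without control replicate 2 and 0.065 with a pseudocount of 0.1 and no filter. With median-ratio and upper-quartile scaling it was 0.0011 and 0.0033. The sign turned for Clic1 with median-ratio (-0.068) and upper-quartile scaling (-0.027) and for Kcnj2 with median-ratio scaling (-0.0088), none of them called. These scalings moved the median log2 change of all tested genes from 0.09 to 0.01 and 0.05, and the share of higher calls among all calls from 75.4% to 50.6% and 60.5%. Without Tip60 cKO replicate 1 the counts were 5 higher and 3 lower, and without control replicate 2, chosen after seeing the data, 4 and 3. No paired analysis was possible because the labels give no replicate numbers, and those used here only name libraries. At the depth of these libraries, genes below about 0.1 FPKM rest on few reads, so a difference there may not be detectable.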
